A study of Mus musculus with 12 samples.

Results

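Glycolysis splits glucose into pyruvate in the cytosol, and lactate dehydrogenase turns pyruvate into lactate so that the pathway can run without oxygen. The fetal lung is filled with liquid and grows at a low oxygen tension, and breathing starts at birth. The 10 genes described here code for a glucose transporter (*Slc2a1*), 2 hexokinases (*Hk1*, *Hk2*), 2 phosphofructokinases (*Pfkl*, *Pfkp*), aldolase A (*Aldoa*), phosphoglycerate kinase (*Pgk1*), enolase (*Eno1*), pyruvate kinase (*Pkm*) and lactate dehydrogenase A (*Ldha*). They were chosen by symbol, and all 10 were among the 16152 genes that the authors kept as expressed and passed the filter on low counts. RNA of whole lungs of wild-type C57BL/6 mice of both sexes, with no treatment, was sequenced on embryonic days E15.5 and E18.5 and on postnatal days P5 and P8, with 3 replicates at each time-point and 12 libraries in all. The replicates of a time-point were littermates, so litter and time-point cannot be told apart and a p-value measures the spread among littermates. Levels are given in CPM, the reads of a gene per 1000000 mapped reads of the library. The genes kept took between 41337443 and 53901957 reads of a library.

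Across birth, which here means from E18.5 to P5, 8 of the 10 genes fell and 2 rose. Together the 10 genes took 3292 ± 291 CPM (SD, n = 3) at E18.5 but 1065 ± 33.0 CPM at P5, after 3943 ± 477 at E15.5, and they stood at 1476 ± 235 at P8. *Slc2a1*, *Hk2*, *Pfkl*, *Aldoa*, *Pgk1*, *Eno1*, *Pkm* and *Ldha* fell past both cutoffs of the study (an absolute log2 fold change above 1 and an edgeR FDR under 0.05), while 9.34% of the 15994 genes tested fell past them and 17.5% rose past them. *Hk1* and *Pfkp* rose past the FDR threshold alone. By that threshold 35.7% of all genes fell and 35.4% rose between these time-points, so passing it was common. The median log2 fold change of the 10 genes was -1.60, and that of all genes tested was -0.0024. All P5 libraries lay below all E18.5 libraries in 8 of the 10 genes, and in 42.6% of the genes tested. These were the 8 genes that fell past both cutoffs, so their separation was largely given in advance and adds no further evidence. In RNA of a whole organ, fewer cells of a type and less RNA per cell cannot be told apart.

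**Figure D1:**
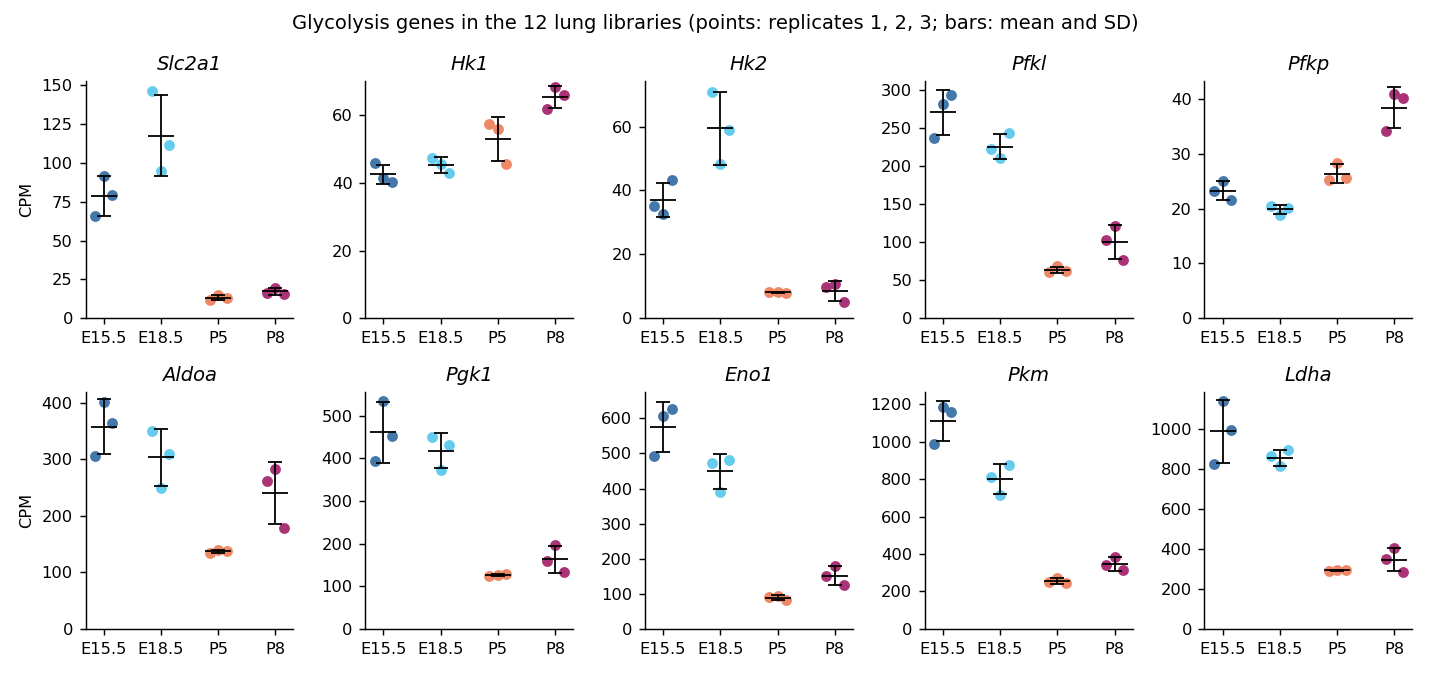
CPM of the 10 glycolysis genes (vertical axes from 0) at the 2 embryonic and 2 postnatal time-points. Points are replicates 1, 2 and 3 from left to right, and bars give the mean and SD. In 8 panels the P5 points lie below all E18.5 points, and in those of *Hk1* and *Pfkp* the means are higher at P5 and P8 than at E18.5.

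Glucose enters the cell through transporters and is trapped by hexokinase. *Slc2a1* (ENSMUSG00000028645, chr4:119108711-119137983 in GRCm38), which codes for the transporter GLUT1, was at 65.8, 91.4 and 79.3 CPM in replicates 1, 2 and 3 at E15.5 and at 146, 95.0 and 112 CPM at E18.5. It was at 11.6, 14.8 and 13.3 CPM at P5 and at 16.3, 19.8 and 15.8 CPM at P8. No postnatal library came near an embryonic one, and the E18.5 mean was 8.89 times the P5 mean. On the log2 scale *Slc2a1* fell by 3.07 across birth (SE, the standard error, 0.17, edgeR FDR = 1.8e-08), which was the largest change of the 10 genes.

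*Hk2* (ENSMUSG00000000628, chr6:82725025-82774454) codes for the hexokinase that is induced by insulin and hypoxia in many tissues. It was at 35.1, 32.8 and 43.2 CPM at E15.5 and at 71.0, 48.2 and 59.0 CPM at E18.5. At P5 it was at 8.16, 8.07 and 7.94 CPM and at P8 at 9.67, 10.8 and 5.13 CPM. The 3 P5 libraries lay close together, and *Hk2* fell by 2.80 on the log2 scale across birth (SE 0.24, edgeR FDR = 4.5e-07). *Hk1* (ENSMUSG00000037012, chr10:62268855-62379908), the hexokinase found in most tissues, moved the other way. Its levels were 45.8, 41.4 and 40.4 CPM at E15.5 and 47.5, 45.6 and 42.9 CPM at E18.5. They were 57.6, 56.0 and 45.5 CPM at P5 and 61.8, 68.3 and 66.2 CPM at P8. The rise of *Hk1* across birth was small, 0.31 on the log2 scale (SE 0.094, edgeR FDR = 0.0094), with P5 replicate 3 inside the range of the E18.5 libraries. Without P5 replicate 1 the change of *Hk1* was 0.21 and no longer passed the FDR threshold (edgeR FDR = 0.071). From E18.5 to P8 *Hk1* rose by 0.60 (edgeR FDR = 9.1e-05), and all P8 libraries lay above all E18.5 libraries.

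Phosphofructokinase catalyses the committed step of the pathway and is built from 3 related subunits. The liver-type subunit *Pfkl* (ENSMUSG00000020277, chr10:77986947-78010083) was at 237, 281 and 293 CPM at E15.5 and at 222, 210.0 and 243 CPM at E18.5. At P5 it was at 61.3, 67.9 and 61.6 CPM, and at P8 at 102, 121 and 76.4 CPM. Across birth *Pfkl* fell by 1.74 (SE 0.14, edgeR FDR = 3.0e-07). The platelet-type subunit *Pfkp* (ENSMUSG00000021196, chr13:6579768-6648777) was at 23.2, 25.04 and 21.7 CPM at E15.5 and at 20.5, 18.9 and 20.1 CPM at E18.5. It was at 25.2, 28.4 and 25.7 CPM at P5 and at 34.2, 40.99 and 40.1 CPM at P8, so that all P5 libraries lay above all E18.5 libraries. *Pfkp* rose by 0.50 across birth (SE 0.075, edgeR FDR = 6.9e-05). The third subunit, *Pfkm* of muscle, which is outside the 10 genes, changed by -0.31 (edgeR FDR = 0.0088).

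Aldolase cleaves the phosphorylated sugar into 2 triose phosphates. *Aldoa* (ENSMUSG00000030695, chr7:126795234-126800751) was at 306, 403 and 364 CPM at E15.5 and at 351, 250 and 310 CPM at E18.5. It was at 134, 140 and 138 CPM at P5 and at 261, 283 and 179 CPM at P8. Among the 8 genes that fell it changed least, by -1.06 across birth (SE 0.17, edgeR FDR = 1.0e-04). Without E18.5 replicate 1, the highest E18.5 library, the log2 fold change of *Aldoa* was -0.93, short of the fold change cutoff, with edgeR FDR = 6.9e-04.

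The later steps make ATP and pyruvate. *Pgk1* (ENSMUSG00000062070, chrX:106187100-106203699), which makes the first ATP, was at 393, 536 and 454 CPM at E15.5 and at 451, 373 and 430.4 CPM at E18.5. It was at 123, 127 and 129 CPM at P5 and at 160, 197 and 133 CPM at P8, and it fell by 1.64 across birth on the log2 scale (SE 0.14, edgeR FDR = 4.7e-07). *Eno1* (ENSMUSG00000063524, chr4:150236721-150248879), enolase 1, was at 494, 607 and 627 CPM at E15.5 and at 473, 390.4 and 482 CPM at E18.5. At P5 *Eno1* was at 90.7, 94.7 and 82.0 CPM and at P8 at 151, 179 and 125 CPM. Of the 5 genes from *Aldoa* to *Ldha* it fell furthest, by 2.24 (SE 0.14, edgeR FDR = 3.7e-08).

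*Pkm* (ENSMUSG00000032294, chr9:59656368-59679375) codes for pyruvate kinase, whose M1 and M2 forms come from alternative exons and were counted together here. It was at 986, 1183 and 1160 CPM at E15.5 and at 810, 714 and 875 CPM at E18.5. *Pkm* was at 249, 273 and 246 CPM at P5 and at 339, 384 and 312 CPM at P8. *Pkm* fell by 1.56 across birth (SE 0.10, edgeR FDR = 5.2e-08). *Ldha* (ENSMUSG00000063229, chr7:46841475-46855627), which makes lactate from pyruvate, was at 826, 1137 and 996 CPM at E15.5 and at 861, 812 and 891 CPM at E18.5. The P5 libraries held 290.5, 293 and 292 CPM of *Ldha*, within 1% of each other, and the P8 libraries 348, 403 and 286 CPM. *Ldha* fell by 1.46 across birth (SE 0.13, edgeR FDR = 5.5e-07). Near-identical copies of *Aldoa*, *Pgk1*, *Eno1* and *Ldha* exist in the mouse genome, and reads that match a gene and its copy equally well are lost from uniquely mapped counts or can fall on the copy, so the levels of these 4 genes are uncertain. The copy *Eno1b* was itself at 79.5 CPM on average at E18.5 and at 15.8 CPM at P5.

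**Figure D2:**
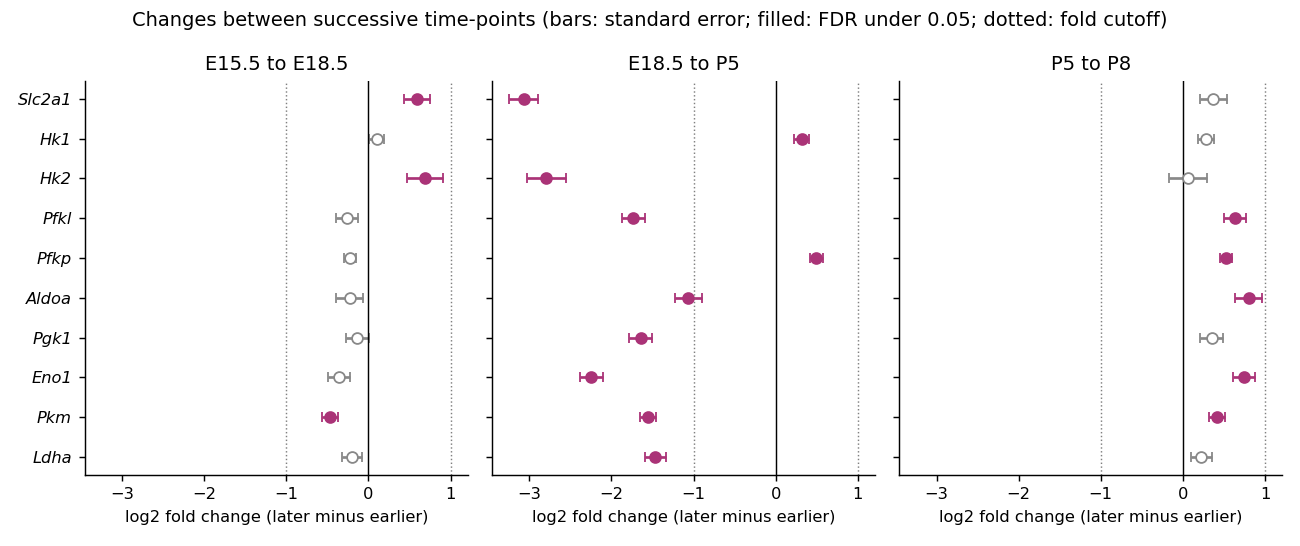
Log2 fold change of each gene between successive time-points (horizontal axes, later minus earlier), with bars for the standard error; filled points passed the FDR threshold of 0.05 and dotted lines mark the fold change cutoff. From E18.5 to P5 8 genes lie left of -1, whereas in the other intervals no gene lies past a dotted line.

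For the 4 steps that none of the 10 genes covers, *Gpi1*, *Tpi1*, *Gapdh* and *Pgam1* fell too. *Tpi1*, which interconverts the triose phosphates, was at 532 ± 23.0 CPM (SD, n = 3) in the E18.5 libraries and 127 ± 5.09 CPM in those of P5 (log2 fold change -1.98, edgeR FDR = 1.4e-07). *Pgam1*, phosphoglycerate mutase 1, went from 497 ± 28.7 to 126 ± 5.06 CPM (-1.90, edgeR FDR = 3.0e-08). *Gapdh*, often used as a reference gene, fell by 1.78 on the log2 scale, with 212 ± 19.5 CPM in the E18.5 libraries and 58.2 ± 1.76 CPM in those of P5 (edgeR FDR = 2.3e-07). *Gpi1*, the isomerase between hexokinase and phosphofructokinase, fell less, from 221 ± 25.8 to 146 ± 4.46 CPM (-0.51, edgeR FDR = 6.0e-04). Copies of these 4 genes, *Gapdh* among them, were not examined. The limit given above for *Aldoa*, *Pgk1*, *Eno1* and *Ldha* may therefore hold for their levels too.

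The 19 other genes listed for glycolysis and lactate transport include *Gpi1*, *Tpi1*, *Gapdh* and *Pgam1*, and 17 of the 19 were tested. From E18.5 to P5 5 fell and 3 rose past both cutoffs, with a median log2 fold change of -0.49. The 5 that fell were *Tpi1*, *Pgam1* and *Gapdh*, already described, and the transporters *Slc16a3* and *Slc16a1*. *Slc16a3*, the lactate exporter MCT4, showed the largest fall, from 77.3 ± 12.2 to 11.97 ± 0.213 CPM (-2.60, edgeR FDR = 9.6e-08). The other monocarboxylate transporter on the list, *Slc16a1*, fell by 1.06 (edgeR FDR = 3.7e-04). The 3 that rose were *Bpgm*, *Hk3* and *Pgam2*. *Bpgm*, which makes the 2,3-bisphosphoglycerate of red blood cells, rose from 49.1 ± 3.99 to 145 ± 43.9 CPM (1.66, edgeR FDR = 2.5e-06), and the erythroid gene *Alas2* rose by 2.96 over the same interval (edgeR FDR = 2.0e-06), while of the 9 erythroid markers tested 4 rose and 3 fell past both cutoffs. The highest P5 level of *Bpgm*, 196 CPM, and the highest P5 sum of the 9 erythroid markers, 516 CPM against 273 and 289 CPM, were both in P5 replicate 1, and the part of red cells in the level of *Bpgm* was not tested. *Pgam2*, the mutase of muscle, rose by 2.02 (edgeR FDR = 0.023), to 8.07 CPM on average, and the summed level of 10 muscle markers was between 22.2 and 52.8 CPM in the E18.5 libraries and between 106 and 248 CPM at P5, below the 2 highest E15.5 libraries (839 and 976 CPM).

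Genes of neighbouring pathways had medians nearer to 0. Of 16 genes of the TCA cycle, which oxidises what pyruvate yields in mitochondria, none passed both cutoffs from E18.5 to P5, 3 fell and 1 rose past the FDR threshold, and the median log2 fold change was -0.11. Without the adjustment, 4 of the 16 had p under 0.05, a threshold for which the share of all genes was not computed. By DESeq2 none passed both cutoffs. *Ogdh* was the gene that rose (0.52, edgeR FDR = 5.2e-04) and *Suclg2* showed the largest fall (-0.52, edgeR FDR = 4.8e-05). Of 7 genes of the pentose phosphate pathway, which branches off after hexokinase, 4 fell and 2 rose past the FDR threshold with a median of -0.21. Of 13 glycogen genes tested 7 fell and 3 rose past it with a median of -0.22. For these lists, as for the TCA cycle, the share of all genes past the FDR threshold was 35.7% lower and 35.4% higher. Only *Pygm*, the glycogen phosphorylase of muscle, passed both cutoffs among the glycogen genes (8.81 ± 2.09 to 39.1 ± 0.380 CPM, log2 fold change 2.24, edgeR FDR = 2.3e-05).

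Among 13 genes that control the entry of pyruvate into mitochondria, 5 rose and 3 fell past the FDR threshold from E18.5 to P5. By that threshold 35.4% of all genes tested rose and 35.7% fell, so passing it was common. The kinases that shut off pyruvate dehydrogenase differed in direction, with *Pdk1* falling from 84.3 ± 4.54 to 32.2 ± 1.79 CPM (-1.30, edgeR FDR = 1.3e-06) and *Pdk4* rising from 2.78 ± 1.21 to 11.98 ± 4.46 CPM (2.19, edgeR FDR = 0.0050). Of the 5 genes for the enzymes that set fructose 2,6-bisphosphate, the activator of phosphofructokinase, *Pfkfb4* rose past both cutoffs (10.4 ± 1.29 to 35.03 ± 0.820 CPM, log2 fold change 1.84, edgeR FDR = 7.7e-09). By the FDR threshold 2 of the 5 rose and 1 fell: *Pfkfb2* rose by 0.92 (edgeR FDR = 1.1e-04), and *Pfkfb3*, the most abundant of them by CPM, fell from 70.1 to 53.7 CPM on average (-0.30, edgeR FDR = 0.0030). Of the 5 gluconeogenesis genes tested, *Fbp2* and *Pck1* rose past both cutoffs and *Pck2* fell past the FDR threshold. *Fbp2* stayed low, at 0.595 CPM on average at P5. *Pck1*, the cytosolic enzyme that starts gluconeogenesis, was at 0, 0.191 and 0.0366 CPM at E18.5 and at 0.0642, 1.98 and 14.3 CPM in P5 replicates 1, 2 and 3, so the time-points overlapped and P5 replicate 3 carried the mean. Without P5 replicate 3 *Pck1* did not pass the FDR threshold (edgeR FDR = 0.095). The 8 brown fat genes described further on, chosen after the data were seen, summed to 24.4, 64.1 and 258 CPM in the same libraries, and their part was not tested.

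**Figure D3:**
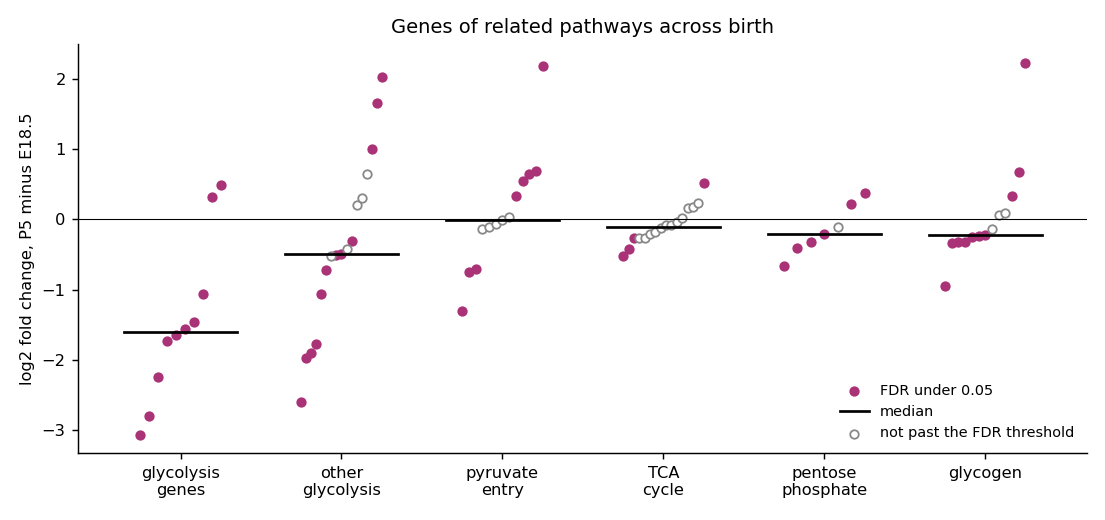
Change across birth (vertical axis, log2, P5 over E18.5) of the genes of 6 lists, each point a gene; filled points passed the FDR threshold of 0.05, open points did not, and bars mark the medians. The median lies at -1.60 for the 10 glycolysis genes, at -0.49 for the other glycolysis genes and between -0.22 and -0.01 for the remaining 4 lists.

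Genes known to control glycolytic enzymes changed in both directions. *Epas1*, which codes for HIF-2α and is high in lung endothelium, rose from 78.0 ± 11.4 CPM at E18.5 to 984 ± 30.3 CPM at P5 (log2 fold change 3.74, edgeR FDR = 1.0e-09). *Hif1a* fell slightly, from 153 ± 2.09 to 112 ± 3.66 CPM (-0.37, edgeR FDR = 1.6e-05). *Egln3*, a prolyl hydroxylase that is itself a HIF target, fell by 2.05 (edgeR FDR = 4.0e-06), and *Myc*, an activator of many glycolysis genes, fell by 1.45 (edgeR FDR = 4.0e-05). Of the 8 regulators listed, 3 fell and 1 rose past both cutoffs. The level of RNA says nothing of the stability of the HIF proteins, which is set after translation.

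Markers of dividing cells moved over the same interval. All 10 proliferation markers fell past the FDR threshold from E18.5 to P5 and 8 past both cutoffs, with a median log2 fold change of -1.37. *Top2a* was at 471 CPM on average at E18.5 and at 161 CPM at P5, *Ccnb1* at 140 and 42.1 CPM and *Bub1* at 106 and 29.8 CPM. The summed level of the list was between 2177 and 2294 CPM in the E18.5 libraries and between 853 and 924 CPM in those of P5. The make-up of the lung also shifted. All 7 leukocyte markers and all 6 endothelial markers rose past both cutoffs, and of 10 lung epithelial markers 6 rose and 1 fell past them, while of 6 mesenchymal markers 1 rose. The leukocyte markers summed to between 34.4 and 38.9 CPM at E18.5 and to between 172 and 221 CPM at P5, with *Itgax*, *Cd79a*, *S100a8* and *Itgam* under 1 CPM on average at E18.5. The endothelial markers summed to between 958 and 1051 CPM and then to between 2123 and 2258 CPM, and *Car4* was the one under 1 CPM at E18.5. The epithelial markers summed to between 1852 and 2840 CPM and then to between 19274 and 20667 CPM. Of those at 5 CPM or more on average, *Scgb1a1*, *Aqp5* and *Sftpb* changed most on the log2 scale. Their mean levels at P5 were 3572, 158 and 2227 CPM. None of the 10 was at 0, and the list was present at the 4 time-points as the tissue label says. The part of dividing cells and of these cell types in the fall of the glycolysis genes was not tested.

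The ratio of 2 related genes was taken within each library, where library size cancels, for 4 pairs of isozymes or transporters. The pairs were chosen with earlier results of these data known, so these tests are not independent evidence of the changes given above. The 6 postnatal libraries were compared with the 6 embryonic ones by a two-sided exact permutation test (924 arrangements), and the 4 p-values were adjusted together. The log2 ratio of *Hk2* to *Hk1* reads was -0.38, -0.34 and 0.10 in the E15.5 libraries, 0.58, 0.08 and 0.46 at E18.5, -2.82, -2.79 and -2.52 at P5 and -2.68, -2.66 and -3.69 at P8. All 6 postnatal libraries lay below all embryonic ones. The means were 0.08 ± 0.40 and -2.86 ± 0.42 (SD, n = 6 each), so the ratio was 7.69-fold lower after birth.

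The log2 ratio of *Pfkp* to *Pfkl* reads turned the other way. It was -3.35, -3.49 and -3.76 at E15.5, -3.44, -3.48 and -3.59 at E18.5, -1.28, -1.26 and -1.26 at P5 and -1.59, -1.56 and -0.93 at P8, with means of -3.52 ± 0.14 and -1.31 ± 0.24 (SD, n = 6 each), a 4.60-fold higher ratio after birth. *Pfkp* nevertheless had fewer reads than *Pfkl* in all 12 libraries.

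For the glucose transporters, *Slc2a1* was set against *Slc2a3*, which codes for the high-affinity transporter GLUT3. Their log2 ratio was 2.303, 2.46 and 2.45 at E15.5, 2.61, 2.59 and 2.53 at E18.5, 0.08, 0.43 and 0.19 at P5 and 0.74, 0.88 and 0.61 at P8. The ratio was 4.01-fold lower after birth, although *Slc2a3* itself fell by 0.73 on the log2 scale from E18.5 to P5 (edgeR FDR = 4.5e-04). *Ldha* was set against *Ldhb*, the heart-type subunit, which favours the turn of lactate into pyruvate. Their log2 ratio was 2.86, 3.27 and 3.44 at E15.5, 3.41, 3.25 and 3.38 at E18.5, 2.40, 2.39 and 2.33 at P5 and 2.06, 1.62 and 2.07 at P8. The difference was the smallest of the 4, 2.18-fold lower after birth, with means of 3.27 ± 0.21 and 2.15 ± 0.30 (SD, n = 6 each). The lowest postnatal value was in P8 replicate 2, with 8035 *Ldhb* reads beside 4077 and 4123 in P8 replicates 1 and 3. The lowest embryonic value was in E15.5 replicate 1. Both libraries held more muscle marker RNA than replicate 3 of their time-point, and the part of such tissue in the ratios was not tested.

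In all 4 ratios no postnatal library overlapped an embryonic one, and each two-sided exact permutation p was 0.00216, adjusted to 0.00216, the smallest that 6 against 6 libraries can give. The 6 libraries of a side came from 2 litters. With E18.5 and P5 alone, 3 against 3 libraries cannot go below an exact permutation p of 0.10, and the differences in log2 ratio were -3.08 for *Hk2* over *Hk1*, 2.23 for *Pfkp* over *Pfkl*, -2.34 for *Slc2a1* over *Slc2a3* and -0.97 for *Ldha* over *Ldhb*.

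**Figure D4:**
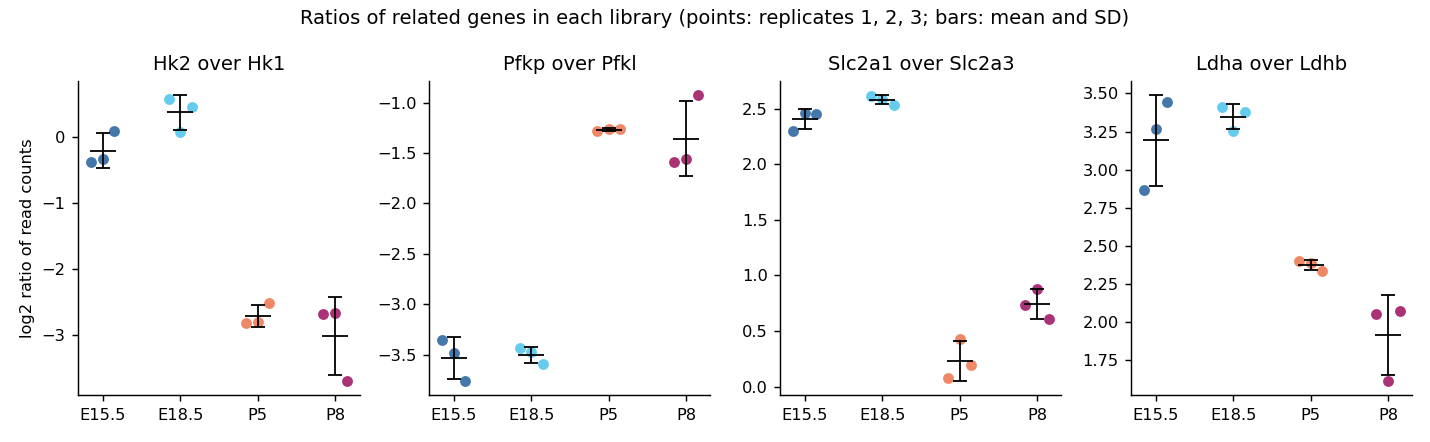
Log2 ratio of the read counts of 2 related genes in each library (vertical axes, which differ between panels) at the 4 time-points. Points are replicates 1, 2 and 3 from left to right and bars give the mean and SD; the P5 and P8 points lie below all embryonic points in 3 panels and above them for *Pfkp* over *Pfkl*.

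Before birth, between E15.5 and E18.5, changes were small. Over this interval no gene of the 10 passed both cutoffs with edgeR or with DESeq2, as against 3.04% of all genes. An unadjusted p under 0.05 was found for 5 of the 10, and the share of all genes at that threshold was not computed. By the FDR threshold 2 rose, *Slc2a1* (0.59, SE 0.16, edgeR FDR = 0.022) and *Hk2* (0.69, SE 0.22, edgeR FDR = 0.042), and *Pkm* fell (-0.47, SE 0.10, edgeR FDR = 0.0076), beside 11.6% of all genes that rose and 9.87% that fell. The libraries of the time-points did not overlap in these 3 genes, nor in *Eno1* and *Pfkp*, which missed the FDR threshold. The share of all genes tested without overlap was not computed for this interval. The rise of *Slc2a1* and *Hk2* rested on few libraries. Without E18.5 replicate 1, in which both were highest, the log2 fold changes were 0.39 and 0.53 with edgeR FDR = 0.095 and 0.17, and 1 of the 10 genes passed the FDR threshold in place of 3. Without E15.5 replicate 1 the FDR was 0.080 for *Slc2a1* and 0.11 for *Hk2* with edgeR, and *Hk2* also missed the threshold without any one of E15.5 replicate 2, E18.5 replicate 3 and the P5 libraries (edgeR FDR between 0.051 and 0.12). E15.5 replicates 1 and 2 held 839 and 976 CPM of the 10 muscle markers and replicate 3 held 28.4 CPM, and E15.5 replicate 2 held 31.6 CPM of 8 thymus markers beside 4.58 and 5.41 CPM in the others. Without E15.5 replicates 1 and 2 and P8 replicates 1 and 2, *Slc2a1* and *Hk2* had log2 fold changes of 0.57 and 0.46 (edgeR FDR = 0.12 and 0.15), while *Pkm* (-0.54, edgeR FDR = 0.027) and *Pfkl* (-0.38, edgeR FDR = 0.043) fell. The part of such tissue in this comparison was not tested.

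Between P5 and P8 5 of the 10 genes rose past the FDR threshold, beside 9.75% of all genes that rose and 8.21% that fell. They were *Aldoa* (0.80, edgeR FDR = 0.0094), *Eno1* (0.75, edgeR FDR = 0.0052), *Pfkl* (0.64, edgeR FDR = 0.011), *Pfkp* (0.52, edgeR FDR = 0.0018) and *Pkm* (0.41, edgeR FDR = 0.017). None passed both cutoffs with edgeR or with DESeq2, as against 2.96% of all genes. Here 8 of the 10 had an unadjusted p under 0.05, again without a share of all genes at that threshold. All P8 libraries lay above all P5 libraries in 8 of the 10, and in 20.8% of the genes tested. *Pkm* missed the FDR threshold without P5 replicate 3, P8 replicate 1 or P8 replicate 2 (edgeR FDR = 0.070, 0.051 and 0.069). The exceptions to the separation were *Hk2* and *Ldha*, in which P8 replicate 3 lay below all P5 libraries.

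The P8 libraries were not alike. Each of the 10 genes was highest in P8 replicate 2, and 8 of the 10 were lowest in P8 replicate 3, with summed levels of 1483, 1707 and 1237 CPM in replicates 1, 2 and 3. The median coefficient of variation of the 10 genes was 17.4% at P8 and 5.84% at P5. Genes of other tissues followed the same libraries. The thymus markers summed to 207 and 396 CPM in P8 replicates 1 and 2 and to 20.5 CPM in replicate 3, and the muscle markers to 463, 402 and 94.9 CPM. A list of 8 genes of brown fat, chosen after the data were seen, summed to 614 and 1198 CPM in replicates 1 and 2 and to 46.8 CPM in replicate 3, and the genes of the TCA cycle to 2521, 3419 and 1744 CPM. Without P8 replicates 1 and 2 and E15.5 replicates 1 and 2, which leaves 1 library at each of these time-points and assumes that it varies like the others, 1 of the 10 genes rose from P5 to P8 past the FDR threshold. That was *Pfkp* (0.58, edgeR FDR = 0.030). The log2 fold change was then 0.36 for *Aldoa*, 0.46 for *Eno1*, 0.24 for *Pfkl* and 0.26 for *Pkm* (edgeR FDR between 0.089 and 0.24), and it was -0.68 for *Hk2* and -0.057 for *Ldha*. This setting could hardly change the comparison across birth, since no library left out was of E18.5 or P5. *Slc2a1*, for example, had a log2 fold change of -3.06 from E18.5 to P5 in place of -3.07. The test then called 375 of 15623 genes between P5 and P8. The part of adjacent tissue in the P8 levels was not tested.

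**Figure D5:**
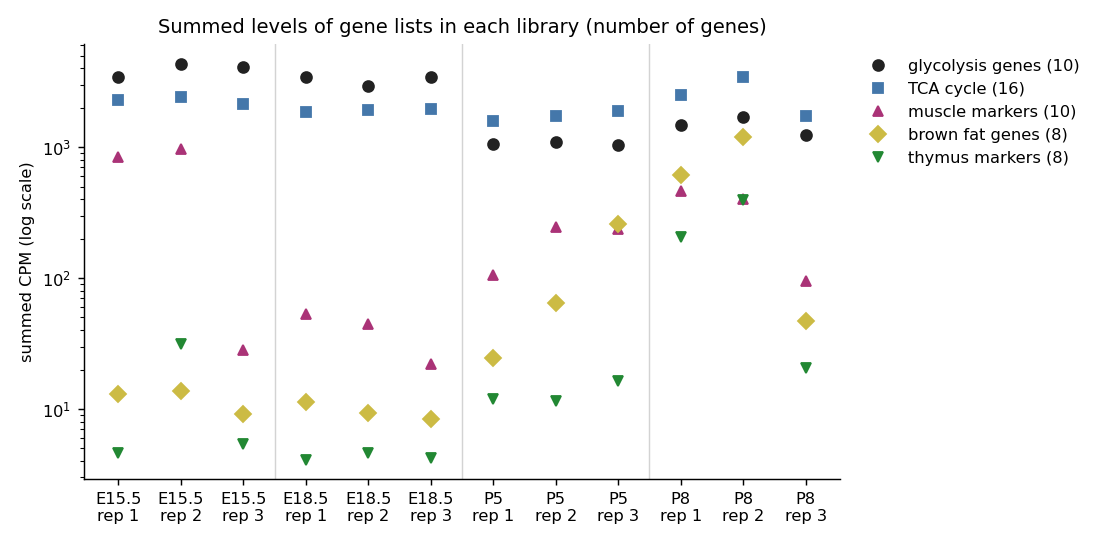
Summed CPM (log scale) of the 10 glycolysis genes and of 4 other gene lists in each of the 12 libraries. P8 replicates 1 and 2 stand above P8 replicate 3 in all 5 lists, and E15.5 replicates 1 and 2 hold more muscle marker RNA than E15.5 replicate 3.

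From E18.5 to P8, a comparison that shares its libraries with those above, 7 of the 10 genes were lower past both cutoffs and *Pfkp* was higher past them, beside 9.38% of all genes lower and 19.6% higher. By the FDR threshold 7 were lower and 2 higher, beside 37.2% and 36.5% of all genes. *Slc2a1* and *Hk2* had log2 fold changes of -2.70 and -2.73 (edgeR FDR = 3.4e-08 and 4.8e-07). *Eno1* followed with -1.499, and *Pfkl*, *Pkm*, *Ldha* and *Pgk1* lay between -1.29 and -1.10. *Aldoa* did not pass the FDR threshold (-0.26, SE 0.17, edgeR FDR = 0.17), and its libraries overlapped. With the same 4 libraries left out the log2 fold change of *Aldoa* was -0.69 (edgeR FDR = 0.0034). *Pfkp* was at the fold change cutoff (1.02, edgeR FDR = 1.2e-07) and fell short of it at 0.98 without E18.5 replicate 2, P8 replicate 2 or P8 replicate 3. *Pfkl* did so without P8 replicate 3 (-0.95).

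The order of the genes by level, per kilobase of their longest principal transcript, changed little among the abundant ones. *Ldha* was highest at all 4 time-points, from 558 ± 88.2 CPM per kilobase (SD, n = 3) at E15.5 to 165 ± 0.726 at P5, and *Pkm* was next at the first 3 of them; the ranges of *Ldha* overlapped those of *Pkm* at E15.5 and of *Aldoa* at P8. *Eno1*, *Pgk1* and *Aldoa* came next, between 201 and 284 CPM per kilobase on average at E15.5 and E18.5, and the ranges of neighbours among these 3 overlapped there. *Pfkl* was sixth throughout. The lower end turned over. *Slc2a1* was seventh before birth, at 36.1 ± 7.99 CPM per kilobase at E18.5, and ninth after it, at 4.06 ± 0.490 at P5, while *Hk1* moved up to seventh with 13.8 ± 1.71. *Hk2* was at 10.8 ± 2.06 at E18.5, where its range overlapped that of *Hk1*, and last at P5 with 1.46 ± 0.0199. At P5 no 2 neighbours in the order overlapped, whereas 4 of the 9 neighbouring pairs overlapped at E15.5 and 3 of 9 each at E18.5 and P8. The order of *Hk1* and *Hk2* before birth, that of *Slc2a1* and *Pfkp* after birth and the order within the 5 most abundant genes below *Ldha* depend on the length used, since with the length of all exons joined *Hk2* stood above *Hk1* before birth.

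The 8 genes that fell were grouped by that fall, so a shared course over the same libraries was in part given in advance. As a description over 12 libraries that form 4 time-points, a gene's log2 CPM was correlated with the mean of the other 9 genes. The correlation was between 0.84 and 0.98 for the 8 genes that fell, -0.65 for *Hk1* and -0.57 for *Pfkp*. The share of all genes with such a correlation was not computed. Outside the lists, the genes most like the mean profile of the 10 included *Rarb*, *Kif1a*, *Stk26*, *Sulf2*, *Eno1b*, *Vars2*, *Gsk3a*, *Sh3bp1* and *Mipep*, with Pearson's r between 0.98 and 0.99. Among these, *Eno1b* is the copy of *Eno1* named above, on which reads of *Eno1* can fall. *Rarb*, which codes for a retinoic acid receptor, was at 21.2, 18.53, 7.48 and 10.6 CPM on average over the time-points in order. *Sulf2*, an enzyme that trims heparan sulfate, was at 95.2, 87.3, 26.3 and 50.9 CPM.

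Promoter sequence was examined because HIF and MYC proteins bind short motifs that can hold the letters ACGTG. RefSeq (GRCm38.p6) gave 17 windows of 250 bases before to 50 bases after a start of transcription for the 10 genes. ACGTG is a form of the core of the hypoxia response element, and other forms were not searched. It was found on either strand in at least 1 window of 7 of the 10 genes, as against 21.8% of the 27025 genes with a window. By window it was in 8 of the 17, as against 19.6% of all 32851. The longer CACGTG, the E-box, which holds ACGTG, was in a window of *Ldha* alone among the 10 genes and in 8.09% of all genes. The GC box GGGCGG was in a window of 9 of the 10 genes and of 38.2% of all. These shares are not like for like. The 10 genes had more windows per gene than all genes, and a single ACGTG match of *Aldoa* was counted in each of its overlapping windows. All genes with a window were taken, without a limit to expressed genes or a match for base content. Enrichment of ACGTG was not tested. Shown here are the stretches upstream of a start in 5 of the genes that fell, with ACGTG, or CACGT where it lies on the other strand, in capitals, each 5′ to 3′ on the strand of the gene.
*Slc2a1*, chr4:119108689-119108733: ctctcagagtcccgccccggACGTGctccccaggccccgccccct
*Hk2*, chr6:82774656-82774700: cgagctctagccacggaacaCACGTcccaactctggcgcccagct
*Hk2*, chr6:82774482-82774526: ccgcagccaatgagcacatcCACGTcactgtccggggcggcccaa
*Aldoa*, chr7:126799356-126799400: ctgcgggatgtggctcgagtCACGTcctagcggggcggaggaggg
*Pgk1*, chrX:106186930-106186993: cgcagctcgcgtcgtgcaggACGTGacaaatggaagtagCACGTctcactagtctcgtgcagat
*Ldha*, chr7:46845639-46845684: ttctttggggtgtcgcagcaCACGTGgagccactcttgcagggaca
*Ldha*, chr7:46845736-46845794: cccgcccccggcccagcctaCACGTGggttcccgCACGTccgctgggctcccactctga
Distances are from the RefSeq start of the window. The match in *Slc2a1* lay 36 bases before it and across the Gencode start of the gene given above, so that 23 bases of the stretch lie in a Gencode exon. The match of *Hk2* nearest the start lay 52 bases before it and those of *Pgk1* 150 and 131 bases before it. In *Ldha* the run CACGTG was read at 145 and 48 bases before the start, and each reads the same on both strands. *Pkm* had matches only in its second window, and *Hk1* only after the start of its second window. *Eno1* and *Pfkl*, which fell, and *Pfkp*, which rose, had no ACGTG in these windows, which leaves other forms of the core unexamined. These matches are letters in a window and not measured binding sites.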

How the data were processed

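RNA of whole lungs was sequenced by the authors as paired-end libraries. Per the labels and the study's methods, the reads were mapped uniquely to mm10 with TopHat2 2.1.1 and Bowtie2 2.3.4, with Gencode vM14 as annotation, and counted per gene with HTSeq 0.10.0; strandedness is not given in the sources used here. The authors deposited raw counts of 16152 expressed genes without normalization. They also deposited CPM of 51825 genes, counts divided by mapped reads (48436716 to 62279460 per library). The CPM values gave back whole reads for 100% of values (tolerance 0.01 reads), equal to the counts. Deposited splicing values were not used, since no table used here pairs their events with these genes.

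Counts were fitted in R 4.3.3 with edgeR 4.0.16 (TMM, glmQLFit and glmQLFTest, 12 libraries, 4 time-points, no block) over the 15994 genes that reached 1 CPM in 3 or more libraries, with Benjamini-Hochberg adjustment over all of them. The fit was tested on simulated counts with known changes. Ratios were tested by exact permutation. Alternatives included DESeq2 1.42.0. Gene positions and lengths are from Gencode vM21 (GRCm38). Likeness used log2(CPM + 1). The genes and lists were chosen with earlier results of these data known. Named genes were the 10 genes, 4 enzymes of uncovered steps, 2 ratio partners, up to 3 genes per list past both cutoffs from E18.5 to P5 with the largest change and at least 5 CPM on average, and the 10 most similar profiles, of which 1 is not reported here; *Pfkm*, *Slc16a1*, *Bpgm*, *Hk3*, *Itgam*, *Pfkfb2*, *Pfkfb3*, *Ogdh*, *Suclg2*, *Fbp2*, *Pck2* and *Hif1a* were named after their values were seen.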

Additional observations from a re-analysis of the deposited data

Results flagged for a closer look

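Among the 8 sets of 6 libraries behind the ratios, 2 held a library far from the others, by a gap above 0.625 of the whole range. Chance gives such a gap in about 1 in 20 sets drawn from a single population. Each set here joins 2 time-points, so that rate need not hold. P8 replicate 3 had a log2 ratio of *Hk2* to *Hk1* reads of -3.69, below the other 5 postnatal libraries, which lay between -2.82 and -2.52. E15.5 replicate 1 had a log2 ratio of *Ldha* to *Ldhb* reads of 2.86, below the other 5 embryonic libraries, which lay between 3.25 and 3.44. With P8 replicate 3 or E15.5 replicate 1 left out, the differences between postnatal and embryonic libraries stayed on the same side of the threshold.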

How the results depend on the processing

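Across 228 values of the counts and ratios recomputed under the alternatives, 222 were taken as the same. A ratio had to keep its direction and its side of the threshold, and a count to stay within 1.5 times, whatever its direction. Without E15.5 replicate 1 the count past the FDR threshold from E15.5 to E18.5 was 2 lower and 0 higher, in place of 1 and 2. Of the log2 fold changes of single genes, 762 stayed the same, 20 lost and 14 gained the FDR call, and 4 reversed. Many of the alternatives could hardly change a value. The reads recovered from CPM equal the counts, and many single libraries left out belonged to neither time-point of a comparison. The count past the FDR threshold from E15.5 to E18.5, 3 of 10, was between 1 and 4 with one library left out, and 1 without E18.5 replicate 1. From P5 to P8, 5 of 10 became 1 without E15.5 replicates 1 and 2 and P8 replicates 1 and 2, an alternative chosen after seeing the data. With E18.5 against P5 only, the ratio differences were -3.08, 2.23, -2.34 and -0.97 in the order given above, each with an exact permutation p of 0.1, the smallest possible. The log2 fold change of *Hk2* from P5 to P8 reversed to -0.07 without P8 replicate 1, -0.13 without P8 replicate 2 and -0.68 without the 4 libraries (it was 0.32 without P8 replicate 3), and the last of these settings also reversed *Ldha* to -0.057; none of these passed the FDR threshold. Same-numbered libraries deviated together with correlations between -0.35 and 0.15, so the numbers do not pair them. With the replicate block the counts past both cutoffs were 0, 8, 0 and 8 of 10. Those past the FDR threshold were 2, 10, 6 and 9 of 10. The order is E15.5 to E18.5, E18.5 to P5, P5 to P8 and E18.5 to P8. For the ratios the block matched E15.5 with P5 and E18.5 with P8 libraries by number alone, across litters. The ratio differences were -2.94, 2.20, -2.004 and -1.12 (exact sign-flip permutation p = 0.0312 each). That p is the smallest that 64 sign patterns can give. It was fixed in advance, since no postnatal library overlapped an embryonic one. The block ended the call of *Hk2* from E15.5 to E18.5 (edgeR FDR = 0.060). By library size only, *Pfkp* missed the fold change cutoff from E18.5 to P8 (0.97). The 3 littermates per time-point limit all comparisons.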
